A study of Mus musculus with 2 samples.

Results

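The 8 genes described here are regulators of ionocytes and genes of their proton pump: Ascl3, Foxi1, Tfcp2l1, Stap1, Hepacam2, Slc4a11, Atp6v1b1 and Atp6v0d2. They were taken by name from the count tables, where all 8 were found among 27998 genes. The choice by name uses no measured value, but it was made with earlier results of these data known. Submandibular glands, one of the pairs of large salivary glands, were dissociated whole from adult mice of 12 weeks and sequenced as single cells with 10x 3′ v2 chemistry. There was 1 library labelled p63 KO and 1 library labelled p63 wild type (WT). The labels do not give the strain, the allele or driver that removed p63, the time of removal, or whether glands were pooled. The source label calls the samples epithelial progenitor cells, whereas endothelial-like, fibroblast-like, T or NK-like and red cell-like clusters were present in the KO library, and endothelial-like, T or NK-like, macrophage-like and red cell-like clusters in the WT library.

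The libraries differed in quality before any gene was compared. A barcode was kept if it held 200 or more genes and less than 20% of its unique molecular identifiers (UMIs, which count transcripts) were mitochondrial, which left 2423 of 4726 KO barcodes (51.3%) and 1663 of 1970 WT barcodes (84.4%). The mitochondrial limit was passed by 40.7% of all KO barcodes and 12.4% of all WT barcodes. Kept cells had a median of 2088 UMIs in the KO library and 3406 UMIs in the WT library. Trp63, the gene of p63, had 20 UMIs in kept KO cells and 149 UMIs in kept WT cells, and since the deleted part is not given, 3′ tags do not show which part of the gene was lost. The libraries shared 11 barcodes, of which 7 were among kept cells of both. With 1 library per genotype no test of genotype is possible. Levels are given as CPM, UMIs of the gene per 1000000 UMIs of the same cells, and brackets hold exact 95% intervals, which cover counting error only and not differences between animals.

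Ionocytes are scattered epithelial cells that move ions across ducts and airways. In mice, the forkhead factor Foxi1 is known to drive the acid-secreting cells of the kidney and inner ear, including genes of the vacuolar proton pump (V-ATPase), a rotary complex with a cytosolic V1 part that splits ATP and a membrane V0 part that carries protons. In the salivary gland Ascl3, a basic helix-loop-helix factor, marks a set of duct cells. Tfcp2l1 is a grainyhead-like family factor known from kidney collecting duct and salivary duct. Hepacam2 is an immunoglobulin-like surface protein, Stap1 is a signalling adaptor known from blood cells, and Slc4a11 is a membrane transporter known from the cornea. Atp6v1b1 encodes the B1 subunit of the V1 part and Atp6v0d2 the d2 subunit of the V0 part.

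All positions are in mouse build mm10 (GRCm38), with gene spans from GENCODE. Ascl3 (ENSMUSG00000035951) is at chr7:109727465-109731726 on the minus strand and Foxi1 (ENSMUSG00000047861) at chr11:34204338-34208089 on the minus strand. Tfcp2l1 (ENSMUSG00000026380) is at chr1:118627945-118685168 on the plus strand. Stap1 (ENSMUSG00000029254) is at chr5:86071746-86106125 on the plus strand, Hepacam2 (ENSMUSG00000044156) at chr6:3457096-3498298 on the minus strand and Slc4a11 (ENSMUSG00000074796) at chr2:130684113-130697519 on the minus strand. The pump genes are at chr6:83742990-83758855 on the plus strand for Atp6v1b1 (ENSMUSG00000006269) and at chr4:19876841-19922605 on the minus strand for Atp6v0d2 (ENSMUSG00000028238). The genes annotated inside Tfcp2l1 and Stap1 had 0 UMIs in kept cells, and none of the other 6 spans overlapped another gene.

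Promoters of 5 of the 8 genes were matched in RefSeq sequences of GRCm38.p6. The 250 bases before the start are shown 5′ to 3′ on the gene's strand for the 3 transcription factors and for Atp6v1b1, the pump gene among the 5. Capitals mark CANNTG, the E-box bound by helix-loop-helix factors, and TGTTTAC, the forkhead core, both searched on both strands, and the marked sites do not overlap. The windows are chr7:109731733-109731982 (minus strand) for Ascl3, chr11:34208090-34208339 (minus strand) for Foxi1, chr1:118627695-118627944 (plus strand) for Tfcp2l1 and chr6:83742767-83743016 (plus strand) for Atp6v1b1.
Ascl3: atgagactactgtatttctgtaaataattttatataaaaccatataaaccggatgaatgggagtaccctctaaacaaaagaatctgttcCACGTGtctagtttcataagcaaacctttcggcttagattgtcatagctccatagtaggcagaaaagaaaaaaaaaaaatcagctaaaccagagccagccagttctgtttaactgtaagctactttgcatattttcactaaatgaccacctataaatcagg
Foxi1: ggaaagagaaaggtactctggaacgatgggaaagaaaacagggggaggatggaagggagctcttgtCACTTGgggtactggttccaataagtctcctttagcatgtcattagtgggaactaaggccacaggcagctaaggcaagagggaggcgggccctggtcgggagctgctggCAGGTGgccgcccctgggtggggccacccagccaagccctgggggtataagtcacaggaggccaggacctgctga
Tfcp2l1: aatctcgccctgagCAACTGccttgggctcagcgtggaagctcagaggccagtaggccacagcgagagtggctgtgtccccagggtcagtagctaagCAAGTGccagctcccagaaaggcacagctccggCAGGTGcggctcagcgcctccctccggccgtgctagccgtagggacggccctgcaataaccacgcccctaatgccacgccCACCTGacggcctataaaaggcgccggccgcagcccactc
Atp6v1b1: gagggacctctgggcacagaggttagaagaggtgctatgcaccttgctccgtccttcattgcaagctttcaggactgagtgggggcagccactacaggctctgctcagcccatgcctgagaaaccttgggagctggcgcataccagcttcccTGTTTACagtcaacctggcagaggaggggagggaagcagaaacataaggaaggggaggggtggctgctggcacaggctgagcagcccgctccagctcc
The Ascl3 window held 1 E-box, the Foxi1 window 2 and the Tfcp2l1 window 4, and the Hepacam2 window, which is not printed, held 2. Atp6v1b1 had no E-box and 1 forkhead core, 98 bases before the start on the plus strand. Of 32851 mouse promoter windows of this length, 66.2% held an E-box and 3.17% held the forkhead core. A match of letters is a description and shows no binding.

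Cells of each library were clustered without the 8 genes, without the other genes of the lists used below and without Trp63. In each library the cluster with the highest summed level of the 8 genes is called the Ascl3-rich cluster. Its levels therefore describe it and test nothing. It held 175 KO cells, 7.22% of kept cells (6.22 to 8.33), and 40 WT cells, 2.41% of kept cells (1.72 to 3.26). Its median mitochondrial share was 14.4% in both libraries, above the library medians of 6.58% in KO and 5.15% in WT kept cells, and its median depth was 2074 UMIs in KO cells and 2638.5 UMIs in WT cells. The filter on barcodes, which joins the mitochondrial limit and the gene minimum, moves these shares: with no filter the cluster chosen in the same way held 6.07% of KO and 4.31% of WT barcodes.

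Ascl3 had 149 UMIs in 105 of the KO cells and 85 UMIs in 57 of the WT cells, or 21.7 CPM (18.3 to 25.5) in KO and 10.7 CPM (8.56 to 13.3) in WT. The Ascl3-rich cluster held 70.5% of the KO UMIs and 49.4% of the WT UMIs of the gene, while holding 5.55% and 1.53% of all UMIs. Its level there was 275 CPM (225 to 333) in KO cells and 346 CPM (249 to 468) in WT cells, and in no other cluster of either library did the interval reach that range. In a cell type that should lack it, endothelial-like cells, Ascl3 was seen in 1.27% of KO cells and 2.94% of WT cells, against 37.7% of KO and 55% of WT cells in the Ascl3-rich cluster. After thinning every cell to 1000 UMIs the shares in the cluster were 20% in KO and 30% in WT.

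Foxi1 had 356 UMIs in 194 KO cells and 55 UMIs in 39 WT cells. It too was highest in the Ascl3-rich cluster, with 543 CPM (471 to 622) in KO cells and 181 CPM (114 to 274) in WT cells. In the KO library a second cluster followed with 259 CPM (201 to 329) and striated or excretory duct-like cells with 83.8 CPM (54.2 to 124). In the WT library no other cluster passed 22.2 CPM, and WT striated or excretory duct-like cells had no Foxi1 UMI. The exact upper limit of that level is 33.2 CPM, and a limit of 3 counts allows 27.0 CPM. Endothelial-like cells had a Foxi1 UMI in 1.58% of KO cells and 1.47% of WT cells.

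Tfcp2l1 was spread over the ducts in both libraries. It was detected in 1160 KO cells (47.9%) and 988 WT cells (59.4%), and after thinning in 30.9% of KO and 27.7% of WT cells. The Ascl3-rich cluster had 985 CPM in KO and 1154 CPM in WT cells and held 10.2% and 4.87% of the gene's UMIs. Striated or excretory duct-like cells had 1377 CPM (1247 to 1517) in KO and 1406 CPM (1194 to 1644) in WT, granular convoluted tubule-like cells 923 CPM in KO and 872 CPM in WT, and intercalated duct-like cells 611 CPM in KO and 821 CPM in WT. Endothelial-like cells had a Tfcp2l1 UMI in 12.0% of KO cells and 32.4% of WT cells, so single UMIs of this gene do not mark a duct cell.

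Hepacam2 was highest in the Ascl3-rich cluster, with 414 CPM (352 to 484) in KO cells and 346 CPM (249 to 468) in WT cells. That cluster held 58.7% of its KO UMIs and 31.6% of its WT UMIs. The next cluster was the Foxi1-bearing KO cluster at 189 CPM (140 to 250) and, in the WT library, granular convoluted tubule-like cells at 75.6 CPM (53.0 to 105). Its intervals in the Ascl3-rich cluster overlapped those of no other cluster.

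Stap1 was found in an epithelial and in a myeloid place. In the KO library its highest level was 209 CPM (169 to 256), with 94 UMIs, in a cluster of 263 cells led by Ccl4, Ccl3 and S100a8, genes of activated myeloid cells, and the Ascl3-rich cluster followed with 94.4 CPM (66.1 to 131). In the WT library the Ascl3-rich cluster was highest with 247 CPM (167 to 353), and macrophage-like cells followed with 95.3 CPM (59.7 to 144). The whole-library level of Stap1 therefore mixes both sources in both libraries.

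Slc4a11 was highest in the Ascl3-rich cluster in both libraries. It had 118 CPM (86.0 to 158) in KO cells, where the interval overlapped that of the second-highest cluster at 54.1 CPM (29.6 to 90.7), and 280 CPM (194 to 392) in WT cells, where the second-highest cluster had 22.2 CPM (4.57 to 64.8). KO basal duct-like cells came next with 41.4 CPM (23.2 to 68.3). The Ascl3-rich cluster held 46.4% of the KO UMIs and 40.5% of the WT UMIs of the gene.

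The pump subunits had their highest levels in different clusters, and in both libraries each of these intervals overlapped that of the next cluster. Atp6v0d2 had 469 CPM (403 to 543) in KO and 280 CPM (194 to 392) in WT cells of the Ascl3-rich cluster, the highest of each library, but the interval overlapped that of the next cluster in both. In the KO library the next were the smaller granular convoluted tubule-like cluster at 346 CPM (258 to 455), the Foxi1-bearing cluster at 282 CPM (221 to 355) and the larger granular convoluted tubule-like cluster at 212 CPM (182 to 246). In the WT library striated or excretory duct-like cells had 171 CPM (103 to 267) and granular convoluted tubule-like cells 122 CPM (92.5 to 157). In all, 26.7% of its KO UMIs and 23.1% of its WT UMIs lay in the Ascl3-rich cluster.

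Atp6v1b1 was rare in the KO library, with 14 UMIs in 13 cells, against 97 UMIs in 89 cells of the WT library. Of these, 2 UMIs in KO and 5 UMIs in WT lay in the Ascl3-rich cluster, 14.3% and 5.15%, where 5.55% and 1.53% of all UMIs lay. The level there was 2.84-fold that of other cells in KO (0.308 to 12.7) and 3.50-fold in WT (1.11 to 8.46). Intercalated duct-like cells had the highest level in both libraries, 7.87 CPM (3.4 to 15.5) in KO and 44.8 CPM (33.1 to 59.2) in WT. The KO order is not resolved. The Foxi1-bearing KO cluster had 7.73 CPM (0.936 to 27.9) and the KO Ascl3-rich cluster 5.24 CPM (0.635 to 18.9), each from 2 UMIs. In the WT library a cluster led by Tll1 and Smgc, an acinar gene, had 33.0 CPM (18.5 to 54.4). The intervals of both WT clusters overlapped that of the WT Ascl3-rich cluster, at 41.2 CPM (13.4 to 96.2). Endothelial-like cells had 0 Atp6v1b1 UMIs in 316 KO cells and in 68 WT cells, with exact upper limits of 1.16% and 5.28% on the share of cells with a UMI. A limit of 3 counts allows 0.949% and 4.41%.

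**Figure D1:**
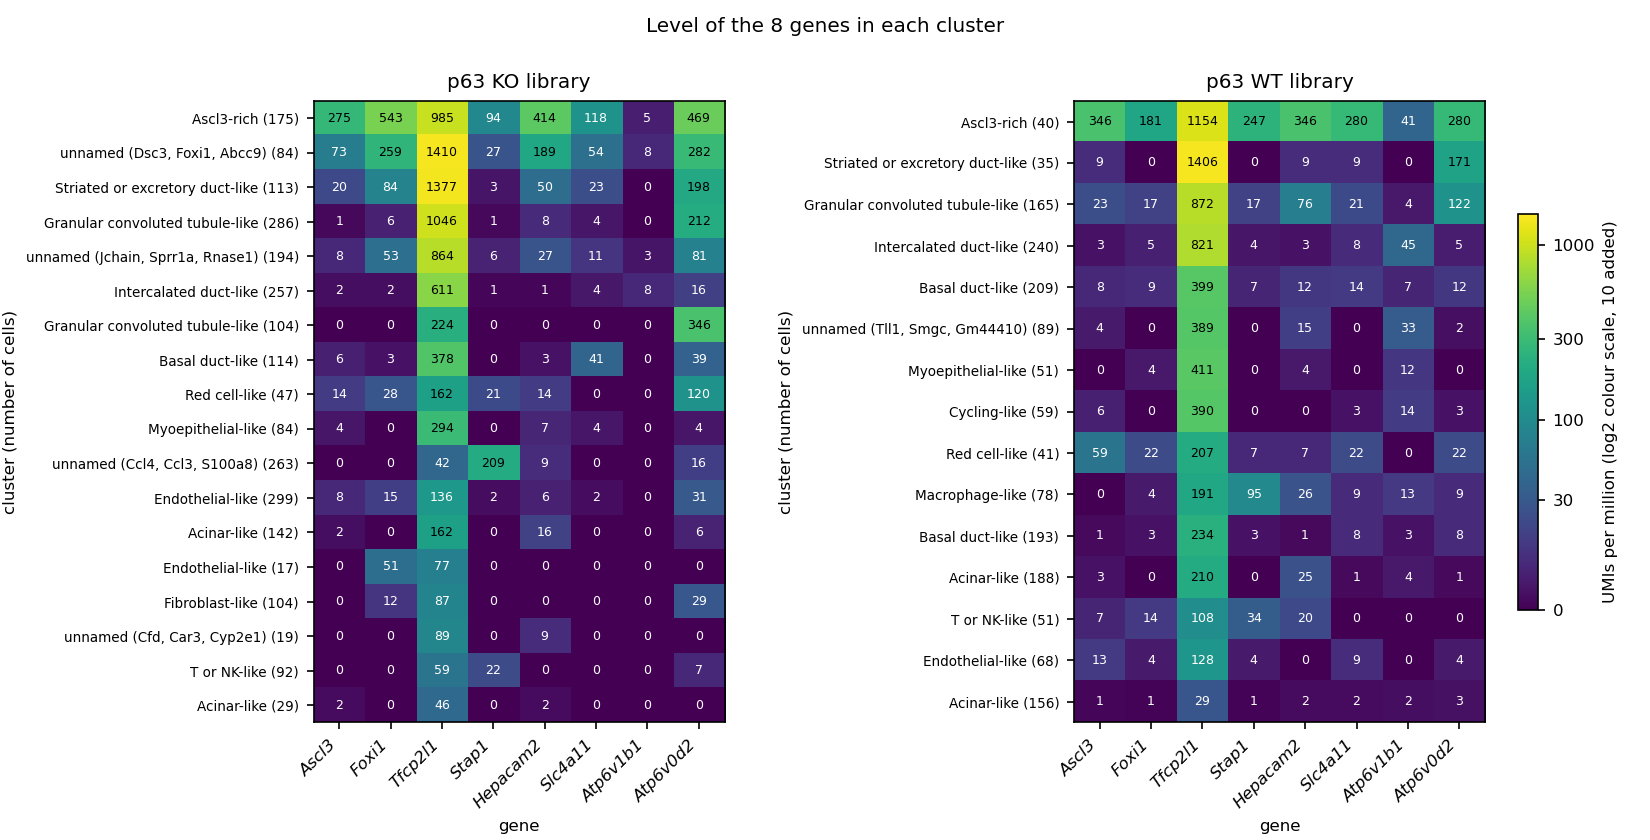
Level of each of the 8 genes (columns) in every cluster (rows, with the number of cells) of the KO library (left) and the WT library (right), as CPM printed in each field, with colour on a log2 scale after adding 10. Rows run from the highest to the lowest summed level, with the Ascl3-rich cluster on top in both, Tfcp2l1 high in many duct-like rows, and Atp6v1b1 at 7.87 CPM at most in any KO row.

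The genes were then read cell by cell. Of the KO cells with an Ascl3 UMI, 53 of 105 also held Foxi1 (50.5%, 40.5 to 60.4), against 6.08% of KO cells without Ascl3. In the WT library 16 of 57 did so (28.1%, 17.0 to 41.5), against 1.43% of WT cells without Ascl3. Read the other way, 27.3% of Foxi1-positive KO cells (21.2 to 34.2) and 41.0% of Foxi1-positive WT cells (25.6 to 57.9) held Ascl3. These shares move with the setting: they were 14.95% in KO and 5.0% in WT after thinning to 1000 UMIs, and 8.70% in KO and 15.4% in WT when 2 UMIs of each gene were required, so neither their size nor their order between the libraries is firm. Cells with Ascl3 were deeper in KO and shallower in WT, with medians of 2309 UMIs in KO cells with Ascl3 and 2062.5 UMIs without it, and of 3254 UMIs in WT cells with Ascl3 and 3414.5 UMIs without it.

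Most Ascl3 and Foxi1 cells held few molecules of these genes. With each cell thinned to 1000 UMIs, 16 of 53 Ascl3-positive KO cells (30.2%) and 1 of 23 Ascl3-positive WT cells (4.35%, 0.110 to 21.9) held Foxi1, against 3.84% of KO and 1.16% of WT cells without Ascl3. The thinned WT share thus rests on 1 cell, and overlap of the pair is not measurable there at equal depth.

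Hepacam2 accompanied Ascl3 in 56 of 105 KO cells (53.3%) and 29 of 57 WT cells (50.9%), against 5.74% of KO and 3.92% of WT cells without Ascl3. Foxi1 was in 97 of 189 Hepacam2-positive KO cells (51.3%) but in 14 of 92 Hepacam2-positive WT cells (15.2%). Slc4a11 was in 24.8% of Ascl3-positive KO cells and 36.8% of Ascl3-positive WT cells, against 2.55% of KO and 2.74% of WT cells without Ascl3. Stap1 was in 16.2% of Ascl3-positive KO cells and 31.6% of Ascl3-positive WT cells, against 4.57% of KO and 2.68% of WT cells without it. Each of these 4 partners was thus more frequent beside Ascl3 in both libraries.

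Most WT cells with an Atp6v1b1 UMI held neither Ascl3 nor Foxi1. Most Foxi1-positive cells lacked Ascl3 too, so this alone does not set Atp6v1b1 apart. Of its 89 WT cells, 5 held Ascl3 (5.62%, 1.85 to 12.6), near the 3.30% of WT cells without it, while 80 held Tfcp2l1 (89.9%), against 57.7%. Foxi1 was in 7 of these cells (7.87%, 3.22 to 15.5), against 2.03% of WT cells without Atp6v1b1, and after thinning in 0 of 20. These WT cells were also deeper, with a median of 5225 UMIs against 3377 UMIs in WT cells without Atp6v1b1. In the KO library 3 of 13 Atp6v1b1 cells held Ascl3 (23.1%, 5.04 to 53.8), against 4.33% of all kept KO cells. With 13 cells the size of the share is not firm.

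**Figure D2:**
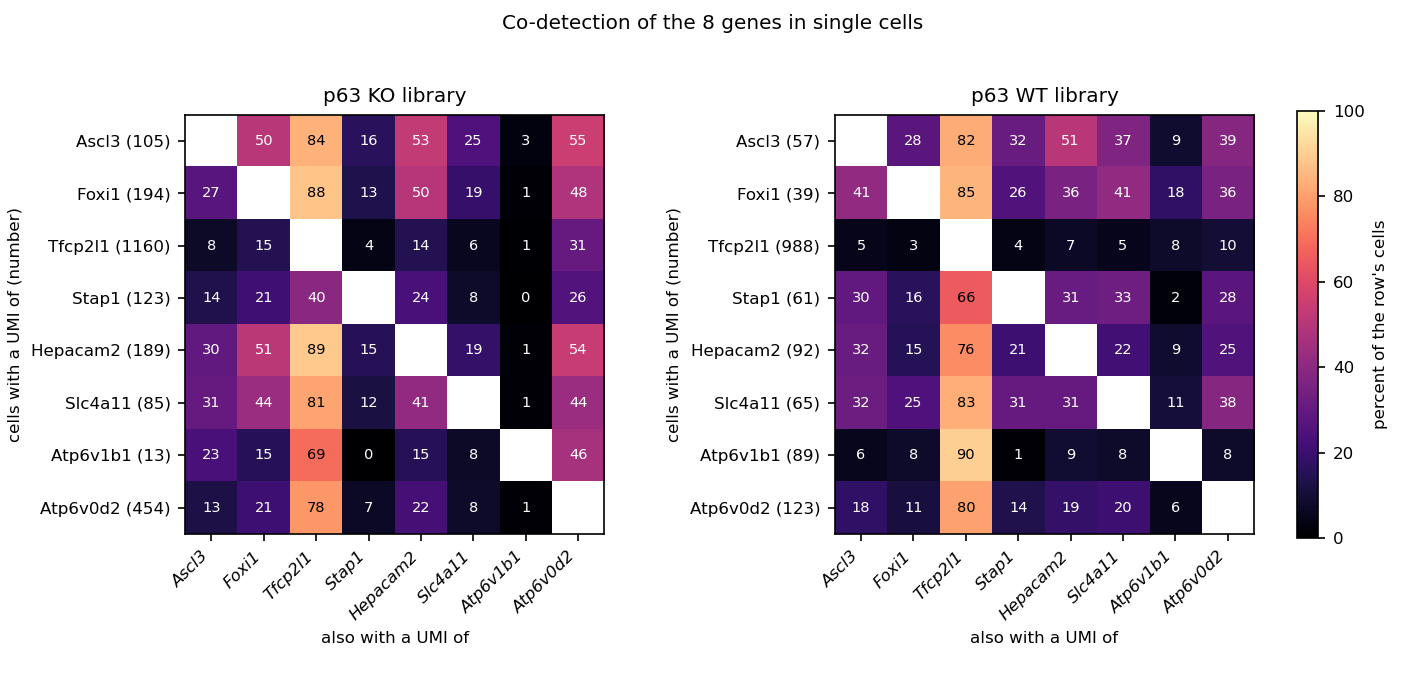
Percent of cells holding a UMI of the row's gene (number of cells in brackets) that also hold a UMI of the column's gene, in kept cells of the KO library (left) and the WT library (right). Ascl3, Foxi1 and Hepacam2 share cells in both, the Tfcp2l1 column is high in most rows, and the Atp6v1b1 column reaches at most 17.9%, in the WT Foxi1 row.

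Counting the genes per cell without the widespread Tfcp2l1, 131 KO cells (5.41%) and 50 WT cells (3.01%) held at least 3 of the other 7. Of these, 90 KO cells (68.7%, 60.02 to 76.5) and 31 WT cells (62.0%, 47.2 to 75.3) lay in the Ascl3-rich cluster, which was chosen by the sum of the genes. A further 22 KO cells lay in the cluster led by Dsc3, Foxi1 and Abcc9, and 8 WT cells in the granular convoluted tubule-like cluster. Within the Ascl3-rich cluster the median cell held 3 of the 7 genes in both libraries. Both Ascl3 and Foxi1 were seen in 40 KO cells (22.9%) and 10 WT cells (25%), Ascl3 alone in 26 KO and 12 WT cells, Foxi1 alone in 60 KO and 5 WT cells, and neither in 49 KO and 13 WT cells.

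**Figure D3:**
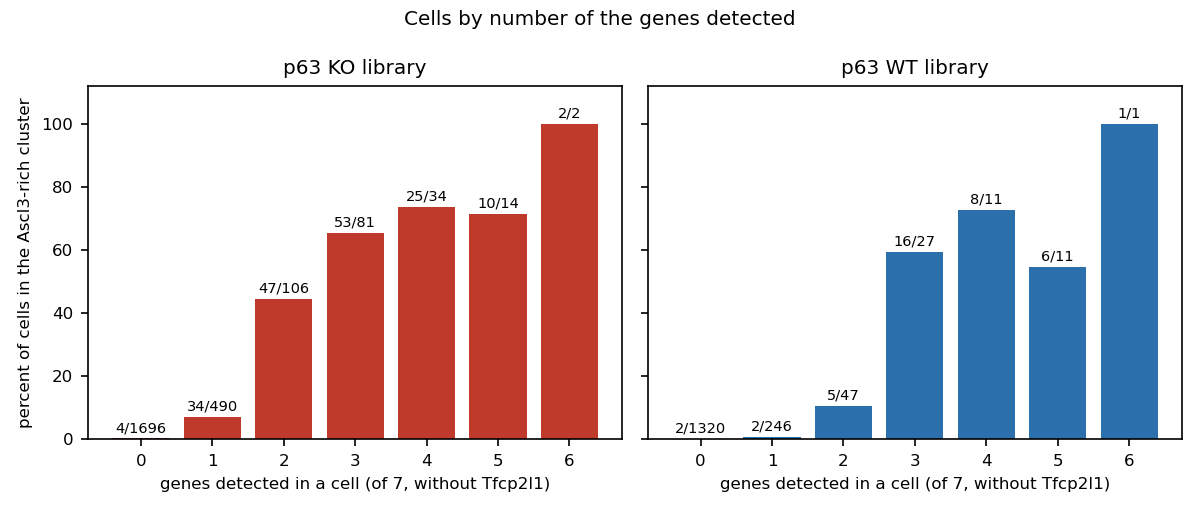
Percent of kept cells that lie in the Ascl3-rich cluster (bars, with cells in the cluster over all cells), by how many of the 7 genes other than Tfcp2l1 had a UMI in the cell, for the KO library (left) and the WT library (right). Of cells with none, 4 of 1696 KO cells and 2 of 1320 WT cells lay in the cluster, and the share was above 50% from 3 genes on in both libraries.

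Barcodes that carried at least 3 of the genes were often over the mitochondrial limit in both libraries, and in KO so were barcodes with none. Of all deposited barcodes with at least 3 of the 7 genes, 44.7% of 237 in the KO library and 44.4% of 90 in the WT library were over the 20% limit and so were left out. Of barcodes with none of the 7 genes, 38.0% in the KO library and 7.81% in the WT library were over it. The mitochondrial limit thus removed like shares of the barcodes with at least 3 genes in both libraries, but unlike shares of those with none. Of barcodes with 2 of the 7 genes, 55.6% in the KO library and 40.5% in the WT library were over it.

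The identity of the Ascl3-rich clusters was checked against 10 ionocyte markers that are not among the 8 genes. At least 2-fold over all other cells with 5 or more UMIs stood 7 of the 10 in KO and 6 of the 10 in WT. The summed level of the markers was 1048 CPM in the KO cluster, against 168 CPM in other KO cells, and 791 CPM in the WT cluster, against 145 CPM in other WT cells. Asgr1, a lectin receptor, had 354 CPM in KO and 338 CPM in WT, Pde1c, a phosphodiesterase, 267 CPM in KO and 173 CPM in WT, Cftr, the chloride channel of cystic fibrosis, 86.5 CPM in KO and 57.7 CPM in WT, and Bsnd, a chloride channel subunit, 62.9 CPM in KO and 49.4 CPM in WT. In WT the interval of each of these genes overlapped that of another duct-like class. Asgr1 had 252 CPM (168 to 365) in WT striated or excretory duct-like cells, and Cftr 56.7 CPM (37.4 to 82.5) in WT granular convoluted tubule-like cells. In KO the interval of Bsnd alone overlapped that of a named duct-like class. Slc26a4, the anion exchanger pendrin, had 0 UMIs in both Ascl3-rich clusters, and P2ry14 had 0 in WT and 1 in KO. Of 9 striated or excretory duct markers, 3 in the KO cluster and 5 in the WT cluster reached the same bar, with a summed level of 10080 CPM in the KO cluster, against 26688 CPM in other KO cells, and 37172 CPM in the WT cluster, against 12824 CPM in other WT cells. Of 10 granular convoluted tubule markers none reached it in either, with a summed 925 CPM in the KO cluster, against 6575 CPM in other KO cells, and 7730 CPM in the WT cluster, against 5534 CPM in other WT cells. Other clusters were named by a stricter bar, 10 or more UMIs and 2-fold after adding 10 CPM, with at least 3 markers passing. By that bar 5 ionocyte and 2 striated or excretory duct markers passed in the KO cluster. In the WT cluster 2 ionocyte markers passed, too few for the name, and 5 striated or excretory duct markers. The clusters are therefore called by Ascl3, one of the genes that chose them, and not by a cell type.

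The libraries' Ascl3-rich clusters had 15 genes in common among the 30 with the largest excess over other cells, of which Ascl3, Foxi1, Hepacam2 and Slc4a11 are among the genes that chose the clusters. The others include Aldh1a3, a retinoic acid synthesis enzyme, Iapp, the amylin gene, Itih5 and Nrip3. Iapp had 144 CPM in the KO cluster and 115 CPM in the WT cluster, against 0.770 CPM in other KO cells and 0.768 CPM in other WT cells. The WT cluster was led by Jchain, the joining chain of secreted antibodies, at 5208 CPM, against 69.7 CPM in other WT cells, and whether plasma cells or their free RNA had a part was not tested.

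A second KO cluster, of 84 cells led by Dsc3, Foxi1 and Abcc9, came second in the level of Foxi1. It held Foxi1 at 259 CPM, Hepacam2 at 189 CPM, Atp6v0d2 at 282 CPM (221 to 355), Ascl3 at 73.4 CPM (44.2 to 115), and Tfcp2l1 at 1410 CPM (1269 to 1562). At least 2-fold with 5 or more UMIs stood 5 of 10 ionocyte, 5 of 9 striated or excretory duct and 7 of 10 granular convoluted tubule markers. It was left unnamed because its 10 leading genes held markers of different sets, the ionocyte marker Bsnd and the tubule marker Egf. Its median was 2969.5 UMIs, against 2074 UMIs in the KO Ascl3-rich cluster, and its median mitochondrial share was 16.1%. Doublets were not removed and their part in it was not tested.

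Set against the other duct-like clusters (874 KO and 842 WT cells, the granular convoluted tubule-like, striated or excretory, basal and intercalated duct-like classes), the level of most of the genes was far higher in the Ascl3-rich cluster, as its choice implies. The size rule used here calls a gene that has at least 50 UMIs in both groups together and a 95% interval of the ratio wholly beyond 2-fold. It called 5 of 6 measured genes higher in KO, namely Ascl3, Foxi1, Hepacam2, Slc4a11 and Atp6v0d2, where 2.37% of all genes measured were called higher. In WT it called 5 of 7 higher, namely Ascl3, Stap1, Hepacam2, Slc4a11 and Atp6v0d2, where 1.06% of all genes were. These counts follow from the choice of the cluster. Ascl3 was 66.6-fold higher in KO (35.8 to 138) and 49.7-fold in WT (29.2 to 86.6), whereas Tfcp2l1 was 1.26-fold in KO (1.13 to 1.41) and 1.91-fold in WT (1.60 to 2.27). The KO folds depend on leaving out the unnamed Foxi1-bearing cluster. With it among the duct-like cells, an alternative added after seeing the data, Ascl3 was 26.8-fold higher in KO (17.7 to 41.7), Foxi1 15.9-fold in place of 43.8-fold and Hepacam2 16.6-fold in place of 46.0-fold, and the same 5 genes were called. Another unnamed KO cluster, of 194 cells led by Jchain, Sprr1a and Rnase1, was left out of both comparisons. In it 2 of 9 striated or excretory duct markers stood at least 2-fold with 5 or more UMIs. It held 33 Foxi1 and 17 Hepacam2 UMIs, against 33 and 24 in the 874 KO cells, and folds with it included were not computed. Over all other cells Ascl3 was 40.6-fold higher in KO (28.3 to 59.1) and 62.9-fold in WT (40.1 to 98.5).

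The rest of the V-ATPase was read from a list of 25 genes, of which 17 in KO and 16 in WT had enough UMIs, and which includes both pump genes described above. The rule called 5 higher in KO, where 2.37% of all genes were, and 1 in WT, where 1.06% were, and none lower in either. In both libraries Atp6v0d2, one of the genes that chose the cluster, is among these calls, and in WT it is the only one. Beside Atp6v0d2, at 3.93-fold in KO (3.25 to 4.73) and 9.35-fold in WT (6.14 to 13.9), the KO calls were the accessory proteins Atp6ap2 at 4.2-fold (3.53 to 5.0) and Atp6ap1 at 3.14-fold (2.1 to 4.6), the V0 proteolipid Atp6v0b at 2.64-fold (2.192 to 3.18) and the V1 subunit Atp6v1d at 2.57-fold (2.07 to 3.17). In WT these had 2.22-fold (1.44 to 3.29) for Atp6ap2, 1.59-fold (0.810 to 2.84) for Atp6ap1, 2.37-fold (1.79 to 3.08) for Atp6v0b and 2.85-fold (1.98 to 3.99) for Atp6v1d, none past the rule. The median log2 ratio of the list was 0.69 in KO and 0.83 in WT, against -0.03 in KO and -0.02 in WT over all genes. The stalk subunits Atp6v1e1, Atp6v1g1 and the V1 subunit Atp6v1f had ratios between 1.28 and 2.21 in KO and between 1.21 and 2.34 in WT, and were not called. Atp6v1g3, a kidney-type G subunit named after its values were seen, had 18 UMIs in the KO cluster and 0 in other KO duct-like cells, and 5 UMIs in the WT cluster and 7 in other WT duct-like cells, too few for the rule.

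**Figure D4:**
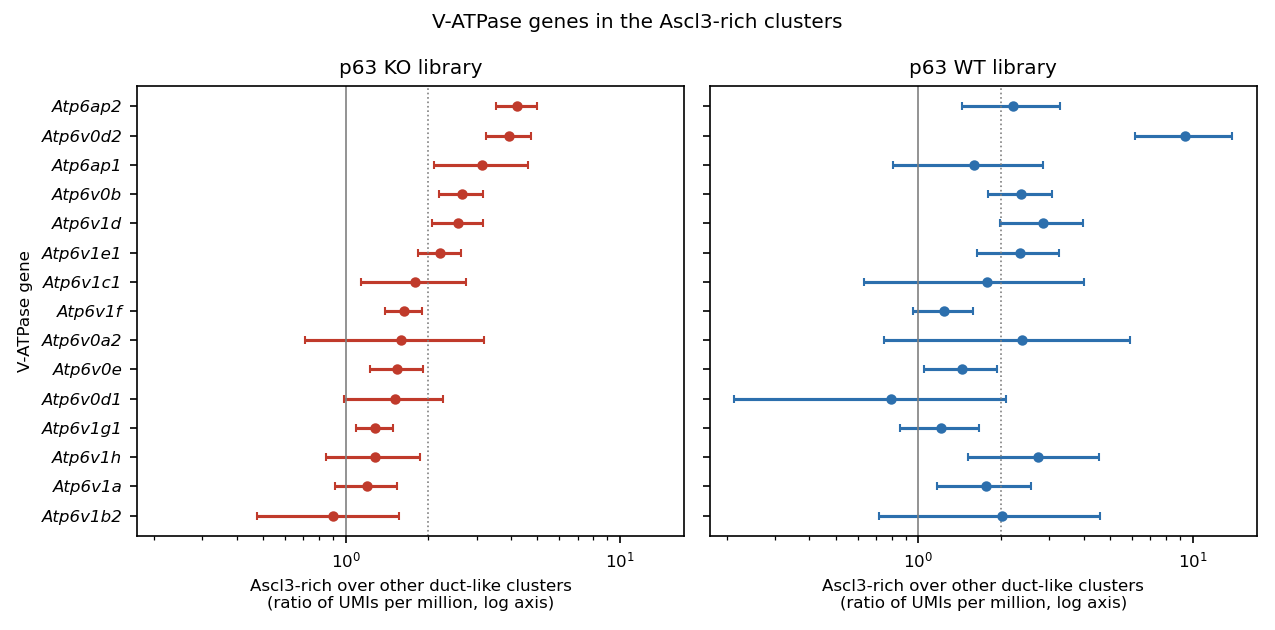
Ratio of the level in the Ascl3-rich cluster to that in the other duct-like clusters (log axis) for the 15 V-ATPase genes with at least 50 UMIs in both groups together in each library, KO on the left and WT on the right. Points are ratios of CPM, bars are exact 95% intervals for counting error, and dotted lines mark 2-fold. The intervals of 5 genes lie wholly beyond 2-fold in KO, and in WT that of Atp6v0d2 alone does.

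Subunit isoforms were compared as shares of the UMIs of a pair, which are 3′ tag counts and not scaled for length. Atp6v0d2 made up 85.6% of the UMIs of Atp6v0d2 and the ubiquitous Atp6v0d1 in the KO Ascl3-rich cluster (80.1 to 90.1) and 89.5% in the WT cluster (75.2 to 97.1), against 54.2% in other KO cells and 29.6% in other WT cells. The intervals overlapped those of the larger granular convoluted tubule-like clusters, at 80.9% in KO (75.1 to 85.9) and 74.4% in WT (63.2 to 83.6), and the share was smaller in intercalated duct-like cells, at 27.1% in KO and 11.9% in WT. Atp6v1b1 made up 2 of the 16 UMIs of Atp6v1b1 and Atp6v1b2 in the KO Ascl3-rich cluster and 5 of 11 in the WT cluster. In intercalated duct-like cells it made up 8 of 65 UMIs in KO (12.3%, 5.47 to 22.8) and 49 of 86 UMIs in WT (57.0%, 45.8 to 67.6), and these intervals do not overlap.

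Of 23 acid-base transporters, channels and carbonic anhydrases, 8 had enough UMIs in each library. None was called higher, and 2 were called lower in KO, where 4.18% of all genes were called lower (0.65% in WT). These were the carbonic anhydrases Car2, with 3 UMIs in the KO cluster and 691 in other KO duct-like cells, and Car12, with 1 and 337. In WT Car2 had 11 UMIs in the cluster and 979 in other duct-like cells, a ratio of 0.306 (0.152 to 0.549), and Car12 had 21 and 520, a ratio of 1.10 (0.674 to 1.70), neither called. The sodium-proton exchanger Slc9a4 had 26 UMIs in the KO cluster and 2 in other KO duct-like cells, and 4 and 15 UMIs in WT, too few for the rule. The potassium channels Kcnma1 and Kcnk1 had 1.86-fold (1.40 to 2.45) and 1.15-fold (0.755 to 1.70) ratios in KO, and 2.08-fold (1.09 to 3.66) and 0.643-fold (0.234 to 1.42) in WT. The bicarbonate transporter Slc4a7 had ratios of 0.755 in KO and 1.17 in WT, uncalled, the anion exchanger Slc4a2 had 8 UMIs in the KO cluster and 1 in the WT cluster, and the SLC4 relatives Slc4a1, Slc4a5, Slc4a9 and Slc4a10 had 0 UMIs in both Ascl3-rich clusters.

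Of 13 relatives and neighbours of the regulators, 4 had enough UMIs in each library, and the rule called 1 lower in KO, where 4.18% of all genes were, and none in WT, where 0.65% were. That one was Grhl1, a grainyhead-like factor as is Tfcp2l1, with 1 UMI in the KO cluster and 148 in other KO duct-like cells, and 1 and 143 UMIs in WT at a ratio of 0.19 (0.00478 to 1.08). Foxi2, a sister factor of Foxi1, had 22 UMIs in the KO cluster against 6 in other KO duct-like cells, or 57.7 CPM and 2.25 CPM, and 9 UMIs in the WT cluster against 2, or 74.2 CPM and 0.606 CPM, below the rule's 50 UMIs. Dmrt2, a factor known from kidney intercalated cells, had 26 UMIs in the KO cluster and 3 in other KO duct-like cells, and 4 and 3 UMIs in WT. Foxi3 and Ascl2 had 0 UMIs in both Ascl3-rich clusters. Grhl3 had 6 UMIs in the KO cluster and 1 in the WT cluster. Elf5, Ubp1 and Grhl2 had ratios between 0.427 and 0.776 in KO and between 0.286 and 0.383 in WT, none called.

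KO was then set against WT, first over all kept cells, where fewer cells and less RNA per cell cannot be told apart. The size rule called 3 of the 8 genes, against 9.21% of the 10285 genes measured. Foxi1 was higher in KO at 7.47-fold (5.61 to 10.1), with 51.8 CPM in KO and 6.93 CPM in WT. Atp6v0d2 was higher in KO at 5.27-fold (4.40 to 6.34), with 97.6 CPM in KO and 18.5 CPM in WT. Atp6v1b1 was 6.0-fold lower in KO (3.41 to 11.4), with 2.04 CPM in KO and 12.2 CPM in WT. Of all genes, 6.72% were called higher in KO and 2.49% lower.

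The other 5 genes were not called. Their KO over WT ratios were 2.02 for Ascl3 (1.54 to 2.67), 2.33 for Hepacam2 (1.89 to 2.90), 2.18 for Stap1 (1.65 to 2.89), 1.49 for Tfcp2l1 (1.41 to 1.56) and 1.33 for Slc4a11 (0.985 to 1.81). The median log2 ratio, with 10 CPM added, was 0.64 over the 8 genes and 0.18 over all genes. All genes split into 691 higher and 256 lower, but 445 higher and 416 lower with TMM scaling, which brought the median of all genes to 0.01, and 462 higher and 459 lower with no filter on barcodes. The 3 calls kept their side under TMM scaling and without the filter. Under a stricter filter of 500 genes and 10% mitochondrial UMIs Foxi1 had 2.92-fold (1.76 to 4.96) and was no longer called, Stap1 had 3.59-fold (2.47 to 5.29) and was, and Ascl3 and Hepacam2 had 0.918-fold and 0.991-fold. Without any filter Ascl3 had 1.30-fold and Stap1 1.17-fold. With cells thinned to 1000 UMIs Atp6v1b1 had a ratio of 0.0980 and was no longer called.

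The Ascl3-rich cluster held a larger share of KO than of WT cells, 7.22% against 2.41%, but 6.07% against 4.31% with no filter on barcodes and 7.35% against 1.20% with both libraries clustered together. Outside it Foxi1 had 23.0 CPM in KO and 4.23 CPM in WT, and Atp6v0d2 75.8 CPM in KO and 14.5 CPM in WT, and both levels were thus above WT outside the cluster too.

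Within the Ascl3-rich cluster none of the 7 measured genes was called between KO and WT, where 4.26% of 1291 genes were. Foxi1 came nearest at 2.99-fold (1.92 to 4.88), with 207 UMIs in KO and 22 in WT, and it was called under TMM scaling (3.50-fold) and without the filter on barcodes (2.94-fold). Stap1 had a ratio of 0.382 (0.229 to 0.642) and Slc4a11 of 0.421 (0.264 to 0.678). Without the filter Stap1 was called at 0.329. Atp6v0d2 had 1.67-fold (1.16 to 2.49), Hepacam2 1.20-fold (0.847 to 1.72), Ascl3 0.795-fold (0.551 to 1.17) and Tfcp2l1 0.854-fold (0.702 to 1.04). All genes split into 19 higher and 36 lower in KO, but 31 higher and 25 lower with TMM scaling, which put the median log2 ratio of all genes at 0.36 in place of 0.15, and 39 and 34 with no filter.

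**Figure D5:**
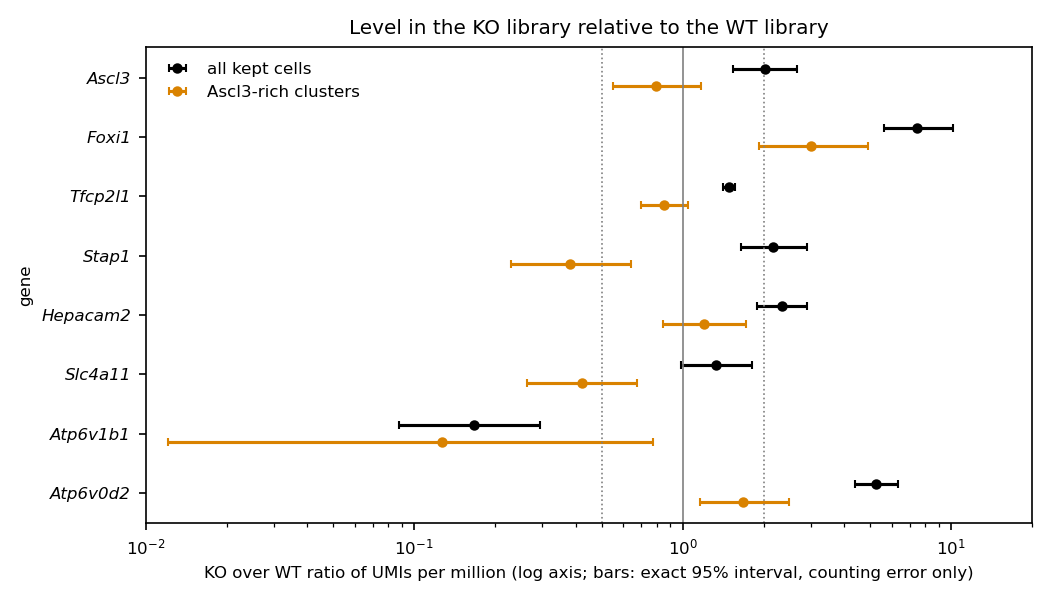
KO over WT ratio of CPM (log axis) of each of the 8 genes over all kept cells (black) and in the Ascl3-rich clusters (orange), with exact 95% intervals for counting error and dotted lines at 2-fold up and down. Over all kept cells Foxi1 and Atp6v0d2 lie wholly above 2-fold and Atp6v1b1 wholly below, and in the Ascl3-rich clusters the ratios of Ascl3, Hepacam2 and Tfcp2l1 span 1.

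In the other duct-like classes few of the 8 genes had enough UMIs for the rule. These were 2 in intercalated duct-like, 2 in granular convoluted tubule-like, 2 in striated or excretory duct-like and 1 in basal duct-like cells. Of these 1 gene was called, in 1 class, and the rest of the 8 could not be called there. Atp6v1b1 had 8 UMIs in KO and 49 UMIs in WT intercalated duct-like cells, 5.69-fold lower in KO (2.67 to 13.9), where 3.92% of 4969 genes were called and 2.25% were lower. Atp6v0d2 in granular convoluted tubule-like cells had 232 CPM in KO and 122 CPM in WT, a ratio of 1.91 (1.42 to 2.59), not called, where 3.0% of 3036 genes were. Hepacam2 in those cells had 7 UMIs in KO and 36 in WT, too few for the rule. Foxi1 in striated or excretory duct-like cells had 25 UMIs in KO and 0 in WT, too few for the rule. With WT set to a floor of 3 counts the KO level was 3.1-fold higher, and the exact interval of the ratio starts at 2.34. The rule called 7.81% of 999 genes in that class and 3.39% of 4036 genes in basal duct-like cells. Tfcp2l1 was not called in these classes, with ratios of 1.06 (0.942 to 1.19) in granular convoluted tubule-like, 0.980 (0.813 to 1.19) in striated or excretory duct-like, 1.17 (0.961 to 1.41) in basal duct-like and 0.744 (0.671 to 0.826) in intercalated duct-like cells.

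The genes whose pattern over clusters was most like the summed level of the 8 were found by Pearson's r of log2(CPM + 10) over 18 KO and 15 WT clusters, among 7564 genes, taking the lower r of both libraries. Clusters of a library share its depth and free RNA, so the values are a description. The sum is dominated by Tfcp2l1, and the nearest genes included 4833439L19Rik, with r of 0.89 in KO and 0.91 in WT, followed by Slc16a11, Fam189a2, Wfdc2, St14, Erbin, Tspan8, Cttnbp2 and Dsg2. With Tfcp2l1 left out of the sum, a choice made after seeing the data, the nearest were Adra1a, an adrenergic receptor, with r of 0.85 in both, then Fxyd2, a sodium pump regulator, Cox7a1, Tfeb, a regulator of lysosome genes, Scnn1b, a sodium channel subunit, Tmem52, Itpr2, Akap7, Acsl5 and Cwh43. Scnn1b had 304 CPM in the KO Ascl3-rich cluster, against 71.8 CPM in other KO cells, and 132 CPM in the WT cluster, against 16.0 CPM in other WT cells. Itpr2, an intracellular calcium channel, had 270 CPM in the KO cluster against 44.2 CPM in other KO cells, and 272 CPM in the WT cluster against 36.7 CPM in other WT cells.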

How the data were processed

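The authors deposited 1 table of UMI counts per gene and barcode for each of the 2 libraries. Build mm10, Seurat 3.1.2, bcl2fastq 2.19.1 and Cell Ranger 2.1.0 are listed, without roles, in the submitters' processing notes. Of 27998 gene IDs, 27645 matched a GENCODE symbol. Kept barcodes had 200 or more genes and less than 20% mitochondrial UMIs. Each library was scaled to 10000 UMIs per cell and clustered on 2000 variable genes, 30 principal components and 15 neighbours with Leiden at resolution 1 (scanpy 1.11.5, leidenalg 0.10.2, Python 3.11.15), leaving out 68 genes (the 8, the listed genes and Trp63). Clusters were named from 18 marker sets. Doublets were not removed. Counts were summed per cluster. Intervals are exact Poisson, Clopper-Pearson or, for ratios, conditional on the summed count (scipy 1.17.1). Cells thinned for comparison were drawn to 1000 UMIs, and no kept cell had fewer. Log2 ratios had 10 CPM added. TMM factors came from edgeR 4.0.16, which was used for scaling only. The size rule was tested on simulated counts.

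The 8 genes, the gene lists and the markers were chosen with earlier results of these data known. The text names all 8, the 6 genes of each list with the most UMIs in the Ascl3-rich clusters, the paralogs of the 8 where measured, genes past the size rule, and the 10 genes of most similar pattern. Of the genes this rule selects, 2 are not reported here. Alternatives for some results were other filters, scalings, thinning, cluster resolutions, joint clustering and listed genes kept in the clustering.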

Additional observations from a re-analysis of the deposited data

Results flagged for a closer look

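The mitochondrial and gene-number filter left out 2303 KO and 307 WT barcodes, which enter the values above only where no filter or all deposited barcodes are named, and several of the 8 genes had a higher level there than in kept cells. In the KO barcodes left out, Foxi1 had 69.8 CPM, Tfcp2l1 592 CPM, Hepacam2 57.5 CPM and Atp6v0d2 117 CPM, against 51.8, 539, 39.1 and 97.6 CPM in kept KO cells. In the WT barcodes left out, Ascl3 had 64.8 CPM, Foxi1 40.9 CPM, Tfcp2l1 535 CPM, Stap1 61.4 CPM, Hepacam2 100.03 CPM, Slc4a11 31.8 CPM and Atp6v0d2 101.2 CPM, against 10.7, 6.93, 362, 10.1, 16.8, 10.6 and 18.5 CPM in kept WT cells. The parts of the mitochondrial limit and of the gene minimum in these differences were not tested apart.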

How the results depend on the processing

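Each called KO over WT ratio of the 8 genes over all kept cells kept its direction under the alternatives run for it. In the Ascl3-rich clusters none was called in the main setting, so no call could change there. Some uncalled ratios crossed 1. Over all kept cells Ascl3 went from 2.02 to 0.918 under the stricter filter. In the Ascl3-rich clusters Tfcp2l1 went from 0.854 to 1.27 without the filter. Slc4a11 went from 0.421 to 1.11 among the cells of these clusters that pass the stricter filter, an alternative added after seeing the data. With cells clustered anew under the stricter filter Slc4a11 had 1.90, but the clusters with the highest sum were then other ones, as described below. The calls against other duct-like clusters had 1 alternative, in KO only. It added the unnamed Foxi1-bearing cluster and left the calls of the 8 genes and of the 3 lists as they were. The Atp6v1b1 call in intercalated duct-like cells had none. No paired analysis was possible because each genotype has 1 library, and leaving out a replicate was not possible for the same reason. The Ascl3-rich share of KO cells was 6.07% with no filter on barcodes. The WT share was 1.20% with both libraries clustered together, 4.31% with no filter and 1.14% under the stricter filter. Under the stricter filter 16 of the 175 KO cells and 10 of the 40 WT cells remained, and the cluster with the highest sum was then another one, sharing 16 KO cells and 0 WT cells with the one described. At Leiden resolution 0.5 the WT cluster with the highest sum was the striated or excretory duct-like one, with 0 cells in common. At resolution 2 all 40 WT cells and 174 of the 175 KO cells were recovered. With both libraries clustered together 20 of the 40 WT cells and 172 of the 175 KO cells were. The number of genes past the size rule over all kept cells was 947 and became 461 with thinned cells, where fewer genes were measured. In the Ascl3-rich clusters it was 55 and became 24 with thinned cells, 96 with a minimum of 10 UMIs and 33 with joint clustering. It became 85 under the stricter filter, where the clusters with the highest sum were other ones. As an alternative added after seeing the data, it was 10 among the cells of the clusters that pass the stricter filter. Shares of cells with a UMI moved by more than their interval after thinning for each of the 8 genes in both libraries. The 40 WT cells of the Ascl3-rich cluster, with 121353 UMIs, limit what can be seen within it.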
